A study of Mus musculus with 1824 samples.

Results

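Transcripts of 6 genes listed together as trophoblast stem genes, *Elf5*, *Ascl2*, *Esrrb*, *Tfap2c*, *Ets2* and *Wfdc2*, were followed through single cells of mouse chimaeric embryos. They were chosen by name, and each matched 1 of the 55487 Ensembl gene identifiers in the count table. The chimaeras were made, as the methods describe, by injecting embryonic stem (ES) cells that lack *Tet1*, *Tet2* and *Tet3* and carry a CAG-driven H2B-tdTomato label into C57BL/6J blastocysts, which were carried by CD1 recipients. The labels give CD1 as the strain of every cell and E7.5 embryo or E8.5 embryo (embryonic day 7.5 or 8.5) as the tissue. Cells were stained for KDR and CD41 and sorted into plates of 96 wells, and neither the genotype (knockout or host) nor the sort gate of a single cell is labelled, so no value below is split by either. In its chimaeras the paper found no tdTomato-positive cells in the trophoblast compartment, whether the injected cells were wild-type or knockout. Differences between extraembryonic ectoderm cells and other classes therefore cannot be told apart from differences in genotype.

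At E7.5 there were 11 plates. Those of embryos 1, 2, 4 and 5 are named for 1 embryo each. The methods describe pooling of embryos in chimaera experiments, so 1 embryo per plate rests on these titles alone. Of the other 7, 1 is named a chimera plate, and 6 that are titled by lane are called lane plates here. Of 1056 wells, 956 held at least 100000 reads and 945 also met the limits on mitochondrial and ribosomal reads. These 945 cells are described here, with 57 to 94 cells and 13423662 to 170844738 reads per plate. Lane plate 5 was the shallowest, with a median of 224956 reads per cell against 526865 or more on the other plates. Embryos 4 and 5 were set against the other 9 plates with earlier results of these data known, and the cells of a plate share their source, so values are given as ranges, counts and intervals with no test. Levels are read counts scaled to 1000000 reads (CPM) of the reads summed over cells. Brackets after a CPM hold the exact 95% Poisson interval and those after a share the Clopper-Pearson interval, both of which cover counting error only, since amplified reads without molecular identifiers are not independent molecules. Where nothing was read, the stated limit is 3 cells or 3 reads of the total.

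Trophoblast, the first lineage to separate in the mouse embryo, builds the fetal part of the placenta, and its stem cells lie in the extraembryonic ectoderm (ExE) next to the epiblast, from which the body forms. A small circuit of transcription factors keeps these cells in the stem state. In ES cells and the embryo proper the *Elf5* promoter is methylated, whereas in trophoblast it is unmethylated and the gene is active, so *Elf5* is known as a gatekeeper between the lineages. ELF5 and ETS2 are factors of the ETS family, TFAP2C is an AP-2 factor, ESRRB is an orphan nuclear receptor shared with the pluripotency network, and ASCL2 is a basic helix-loop-helix factor from an imprinted gene, read from the maternal allele, that the ectoplacental cone and spongiotrophoblast require. *Wfdc2* encodes a secreted protein with whey acidic protein domains.

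In GRCm38, the build of the counts, *Elf5* (ENSMUSG00000027186) lies at chr2:103411688-103450989 on the plus strand, *Wfdc2* (ENSMUSG00000017723) at chr2:164562413-164568510 on the plus strand and *Tfap2c* (ENSMUSG00000028640) at chr2:172549593-172558622 on the plus strand. *Ascl2* (ENSMUSG00000009248) lies at chr7:142966829-142969264 on the minus strand, *Esrrb* (ENSMUSG00000021255) at chr12:86361117-86521628 on the plus strand and *Ets2* (ENSMUSG00000022895) at chr16:95702075-95721051 on the plus strand. In the GENCODE M21 annotation 0 other genes overlapped any of them, so their reads had no annotated neighbour to be shared with. RefSeq promoter windows on GRCm38.p6 were found for 5 of the 6 genes, and *Tfap2c* had no entry. The 250 bases before the start are shown for the 3 genes whose levels were nearest to absent outside trophoblast, because *Elf5* is known for promoter methylation, a mark placed on the C of CpG. Capitals mark every CpG, and methylation itself was not analysed here. The *Elf5* stretch at chr2:103423818-103424067 precedes a start inside the gene, the *Ascl2* stretch is chr7:142969265-142969514 on the minus strand, and the *Esrrb* stretch is chr12:86360867-86361116.
*Elf5*: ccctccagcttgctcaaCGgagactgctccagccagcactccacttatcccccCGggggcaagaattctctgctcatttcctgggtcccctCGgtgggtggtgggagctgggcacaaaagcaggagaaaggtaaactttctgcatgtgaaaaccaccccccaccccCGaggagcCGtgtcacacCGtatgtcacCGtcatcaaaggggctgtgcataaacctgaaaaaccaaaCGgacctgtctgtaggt
*Ascl2*: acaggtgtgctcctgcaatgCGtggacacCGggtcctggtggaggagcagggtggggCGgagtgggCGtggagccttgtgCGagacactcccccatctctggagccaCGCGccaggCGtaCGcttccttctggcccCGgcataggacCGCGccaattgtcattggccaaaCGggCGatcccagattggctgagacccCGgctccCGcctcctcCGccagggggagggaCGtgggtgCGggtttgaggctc
*Esrrb*: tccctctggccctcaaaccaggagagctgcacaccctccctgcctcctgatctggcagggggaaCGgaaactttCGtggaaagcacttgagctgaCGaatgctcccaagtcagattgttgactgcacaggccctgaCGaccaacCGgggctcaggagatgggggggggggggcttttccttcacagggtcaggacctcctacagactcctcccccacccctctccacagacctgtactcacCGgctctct

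These stretches held 8 CpGs for *Elf5*, 19 for *Ascl2* and 6 for *Esrrb*. Of 32851 promoter windows of the same length, 59.7% held as few as the *Elf5* stretch or fewer, 82.1% as few as that of *Ascl2* and 53.7% as few as that of *Esrrb*. The other *Elf5* start, further upstream, followed 250 bases that lie in annotated exons (chr2:103411848-103412097, not printed) and hold 2 CpGs. The other *Esrrb* start followed chr12:86421394-86421643 (not printed), with 3 CpGs, and 37.8% of windows held as few. Reads were counted per gene, so the start in use cannot be told from them. On both strands, the ETS core GGAA was present 1 time in the printed *Elf5* stretch, 1 time in that of *Ascl2* and 4 times in that of *Esrrb*, and 93.4% of all windows held at least 1. The AP-2 motif GCCNNNGGC, held by 13.7% of all windows, and the nuclear receptor motif AGGTCA, held by 14.02%, were in none of the 3.

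Classes of cells were rebuilt by clustering the cells of both stages with at least 4000 reads, without the 6 genes, and each cluster was named from lists of markers. The levels below are those of the deeper cells described above. ExE-like cells numbered 98 of 945. All 10 of their markers had a higher CPM in them than in the other cells, among them *Tex19.1* at 495 against 10.4 CPM and *Bmp8b* at 158 against 0.166 CPM. The 173 epiblast-like cells were higher for 6 of 6 epiblast markers, such as *Slc7a3* at 498 against 7.47 CPM. Only 7 cells were surface ectoderm-like (surface ectoderm and amnion), from lane plates 1 and 4, with 7 of 7 markers higher. ExE-like cells made up 50 of 91 cells of embryo 4 (54.9%, 44.2 to 65.4) and 37 of 88 of embryo 5 (42.05%, 31.6 to 53.05). Lane plate 5 held 5 of 57, lane plate 6 held 5 of 83 and lane plate 4 held 1 of 83. On embryos 1 and 2, the chimera plate and lane plates 1 to 3 there were 0, which allows at most 3.57% of the 84 to 94 cells of each plate.

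*Elf5* had the largest ratio of the 6 genes between embryos 4 and 5 and the other plates. It stood at 136 CPM (133 to 139) on embryo 4 and 81.2 CPM (78.6 to 83.9) on embryo 5. Lane plate 5 followed with 8.05 CPM and lane plate 6 with 5.94 CPM. The other 7 plates lay between 0 and 0.215 CPM, and on 4 of them, the chimera plate and lane plates 1 to 3, no cell had a read. Both embryos were thus above all 9 other plates. The pooled log2 ratio, with 1 CPM added to both sides as in every ratio below unless a bound is stated, was 6.17.

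*Esrrb* had the same order. Its level was 61.4 CPM on embryo 4 and 42.9 CPM on embryo 5, against 3.72 CPM on lane plate 5, 3.34 CPM on lane plate 6 and 0 to 0.200 CPM on the other 7 plates. *Tfap2c* was at 191 CPM on embryo 4 and 98.6 CPM on embryo 5. Its other plates reached 22.7 CPM on lane plate 6 and went down to 0.268 CPM on lane plate 1, a wider spread than for *Elf5* or *Esrrb*. *Ascl2* was lower throughout, at 34.9 CPM on embryo 4, 20.6 CPM on embryo 5 and 0.761 to 5.81 CPM elsewhere. The log2 ratios were 5.30 for *Esrrb*, 4.01 for *Tfap2c* and 3.28 for *Ascl2*. Without embryo 4 that of *Tfap2c* was 3.40.

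The other 2 genes went another way. *Ets2* was at 85.2 CPM on embryo 4 and 66.5 CPM on embryo 5, but lane plate 2 stood above both with 164 CPM and the groups overlapped, with the remaining 8 plates at 22.6 to 48.3 CPM. On lane plate 2, 46.96% of the *Ets2* reads came from 49 haematoendothelial-like cells (140.4 CPM) and 48.1% from 19 cells of an unnamed cluster led by *Stab2* and *Lyve1* (303 CPM). That cluster counted 6 of the 9 haematoendothelial markers but did not meet the rest of the naming rule. *Wfdc2* stood at 16.4 CPM on embryo 4 and 19.02 CPM on embryo 5, within the 2.03 to 52.8 CPM of the other plates, and its log2 ratio was -0.34 against 0.79 for *Ets2*. With lane plate 2, where *Ets2* was highest, left out, 5 of the 6 genes had both embryos above, and so did 12.9% of genes. In all, 4 of the 6 genes had both embryos above all other 9 plates and 0 had both below. Among the 9813 genes with at least 10 CPM in either pool, 10.8% had both embryos above all 9 and 4.13% both below. The median log2 ratio of those genes was 0.06, against 3.64 for the 6. In summed reads of a plate, fewer cells of a type and less RNA per cell cannot be told apart, and the share of ExE-like cells given above moved with these ratios.

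**Figure D1:**
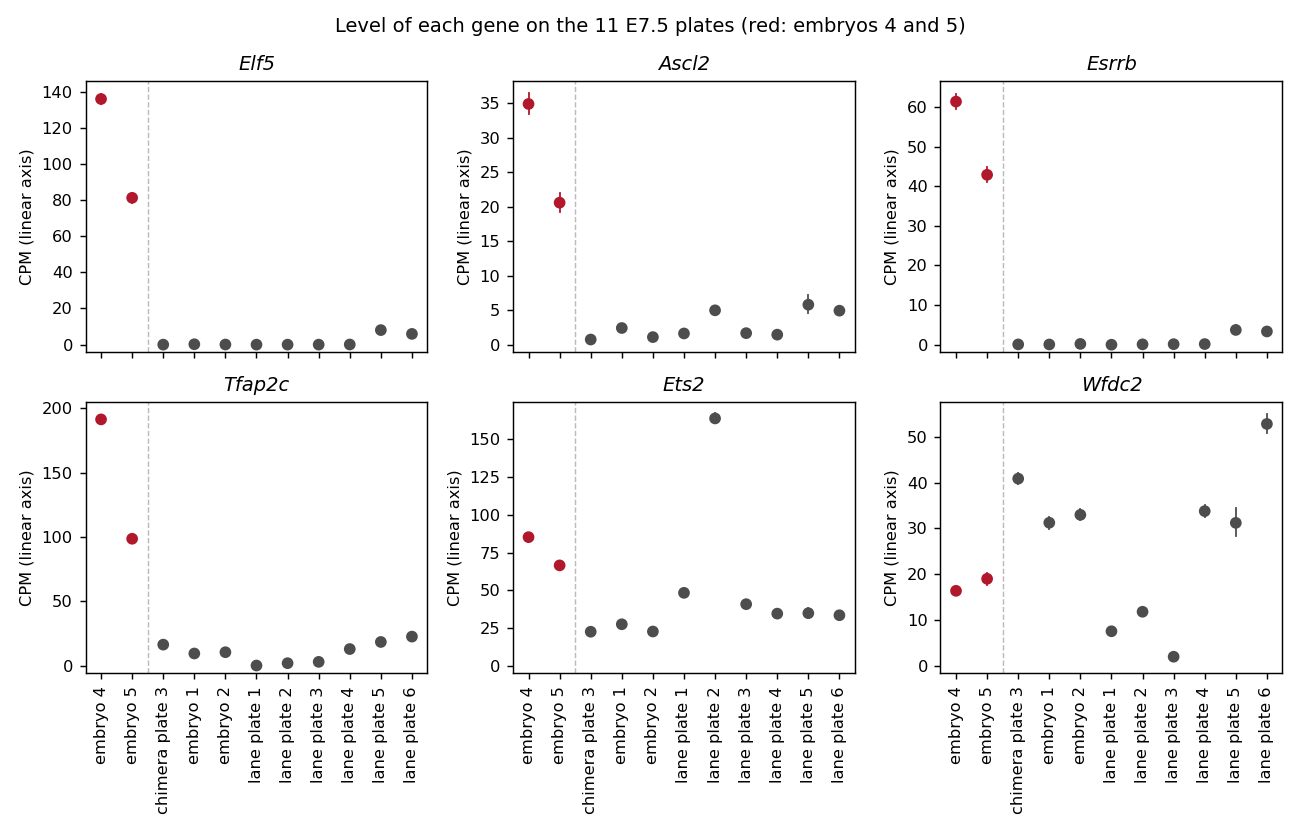
Level of each of the 6 genes in CPM (linear vertical axis) on each of the 11 E7.5 plates (horizontal axis), with embryos 4 and 5 in red, the other 9 plates in grey and vertical bars for the 95% Poisson interval. *Elf5*, *Esrrb*, *Tfap2c* and *Ascl2* are higher in both red plates than on any grey one, *Ets2* is highest on lane plate 2 (164 CPM), and *Wfdc2* on the red plates (16.4 and 19.02 CPM) lies within the grey range.

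The reads could be traced to cells. Of 8123 *Elf5* reads on embryo 4, 8119 lay in the 50 ExE-like cells, and of 3682 on embryo 5, 3680 lay in the 37. On lane plates 4 to 6, all 406 reads were in the 11 ExE-like cells. Over all E7.5 plates 99.8% of *Elf5* reads and 98.5% of *Esrrb* reads fell in that class. For *Tfap2c* the share was 73.1%, for *Ascl2* 69.9%, for *Ets2* 15.8% and for *Wfdc2* 4.43%. Of all reads, 6.93% came from ExE-like cells, so the *Wfdc2* share lay below that of an average read and the other 5 shares above it.

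*Elf5* was found in 98 of 98 ExE-like cells at 209 CPM (205 to 213). The median cell was at 180 CPM and the middle quartiles ran from 109 to 262 CPM. By plate the class was at 243 CPM on embryo 4, 191 CPM on embryo 5, 102 CPM on lane plate 5 and 66.6 CPM on lane plate 6. In epiblast-like cells there were 0 reads in 173 cells, which allows a share of up to 1.73% of cells, and *Elf5* was at least 9329-fold higher in ExE-like cells with 3 reads over the class as the limit. In surface ectoderm-like cells there were 0 reads in 7 cells, a number that allows up to 42.9% of cells with a read and gives a bound of at least 540.2-fold.

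Outside the class *Elf5* had 27 reads in 8 of 847 cells. The pair with most, 8 and 7 reads, were primitive streak and nascent mesoderm-like cells of embryo 1, a plate with 0 ExE-like cells, at 21.4 and 12.8 CPM. Of the ExE-like cells, 94 of 98 lay above 21.4 CPM, and the 4 others began at 1.38 CPM. Each class other than ExE-like was at or below 0.243 CPM, and 9 named classes and the unnamed cells had no read.

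*Esrrb* was at 99.4 CPM (96.9 to 102) in ExE-like cells and was read in 82 of 98 (83.7%). Its plates gave 110 CPM on embryo 4, 101 CPM on embryo 5, 47.4 CPM on lane plate 5 and 37.3 CPM on lane plate 6. In epiblast-like cells it was at 0.149 CPM, with a read in 5 of 173 cells (2.89%), and in surface ectoderm-like cells at 0. No other class exceeded 0.508 CPM, the value of the 13 pharyngeal and cardiac mesoderm-like cells. The highest cell outside the class reached 39.1 CPM, and 66 of the 98 ExE-like cells were above it.

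*Tfap2c* was read in 98 of 98 ExE-like cells at 277 CPM (273 to 282), and in this class it was the highest of the 6 per kilobase of exon, at 75.4 CPM per kb. *Elf5* followed at 35.6 CPM per kb, *Ascl2* at 33.6, *Ets2* at 19.05, *Esrrb* at 16.4 and *Wfdc2* at 12.2 CPM per kb. Unlike *Elf5*, *Tfap2c* had another class with reads in most cells. Primitive streak and nascent mesoderm-like cells were at 24.6 CPM, with a read in 100 of 168 cells (59.5%), and ranged from 8.91 to 78.9 CPM over 8 plates. Neural ectoderm-like cells were at 13.5 CPM, definitive endoderm and axial mesendoderm-like cells at 11.4 CPM and epiblast-like cells at 6.15 CPM, with a read in 42 of 173 cells. Over plates with at least 5 cells of a class, the ExE-like values, 119 to 338 CPM, did not overlap with those of any other class. Single cells did overlap. The highest cell outside the class, a primitive streak and nascent mesoderm-like cell, was at 425 CPM, and 8 of the 98 ExE-like cells were above it. Erythroid-like, myeloid-like, caudal epiblast-like, pharyngeal and cardiac mesoderm-like and unnamed cells had no *Tfap2c* read.

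*Ascl2* was at 54.5 CPM (52.6 to 56.4) in ExE-like cells, but in only 57 of 98 cells (58.2%), and the median cell was at 8.30 CPM against a highest of 866 CPM. Haematoendothelial-like cells were next at 5.41 CPM, with a read in 13 of 99 cells, followed by definitive endoderm and axial mesendoderm-like cells at 4.64 CPM. Over plates these classes ran from 0 to 9.12 CPM and from 0 to 8.39 CPM, so their order is not separated. Epiblast-like cells were at 0.739 CPM with a read in 9 of 173, and the 7 surface ectoderm-like cells at 0. The highest cell outside the ExE-like class reached 171 CPM, and 9 of the 98 ExE-like cells were above it. The median ExE-like level was reached by 45 cells of other classes.

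*Ets2* was present widely. ExE-like cells were at 110 CPM (107 to 113) with a read in 95 of 98, yet the 30 unnamed cells were higher at 227 CPM (222 to 233), with 245.3 CPM in the 28 of the *Stab2* and *Lyve1* cluster and 45.1 CPM in the 2 of another, and haematoendothelial-like cells were at 95.4 CPM. By plate the ExE-like class ran from 21.8 CPM on lane plate 5 to 117 CPM on embryo 4, and the haematoendothelial-like class from 76.4 to 140.4 CPM, so these overlapped. Epiblast-like cells were at 19.5 CPM and surface ectoderm-like cells at 21.02 CPM. Of all *Ets2* levels the lowest was 1.22 CPM in pharyngeal and cardiac mesoderm-like cells.

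*Wfdc2* went against its place on the list of trophoblast stem genes. ExE-like cells were at 13.94 CPM (12.997 to 14.93), with a read in 58 of 98, below epiblast-like cells at 82.6 CPM (81.1 to 84.2) and surface ectoderm-like cells at 161 CPM (152 to 170). The 4 plate values of the ExE-like class, 5.69 to 18.2 CPM, lay below the 7 of the epiblast-like class, 49.98 to 115 CPM. Caudal epiblast-like cells were at 46.9 CPM, and erythroid-like and myeloid-like cells at 0.304 and 0.0334 CPM.

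From epiblast-like to ExE-like cells the log2 ratios were 7.71 for *Elf5*, 6.45 for *Esrrb*, 5.28 for *Tfap2c*, 4.995 for *Ascl2*, 2.44 for *Ets2* and -2.49 for *Wfdc2*. Thus 5 of 6 genes were at least 4-fold higher and 1 at least 4-fold lower. Among 9548 genes with at least 10 CPM in either class, 5.13% were at least 4-fold higher and 6.92% at least 4-fold lower, with a median log2 ratio of 0.02 against 5.14 for the 6 genes. With *Elf5* placed at its bound it was still the highest of the 6, so the last median could not move from 5.14. The clusters were made from the other genes of the same cells, so this is a description of the classes.

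**Figure D2:**
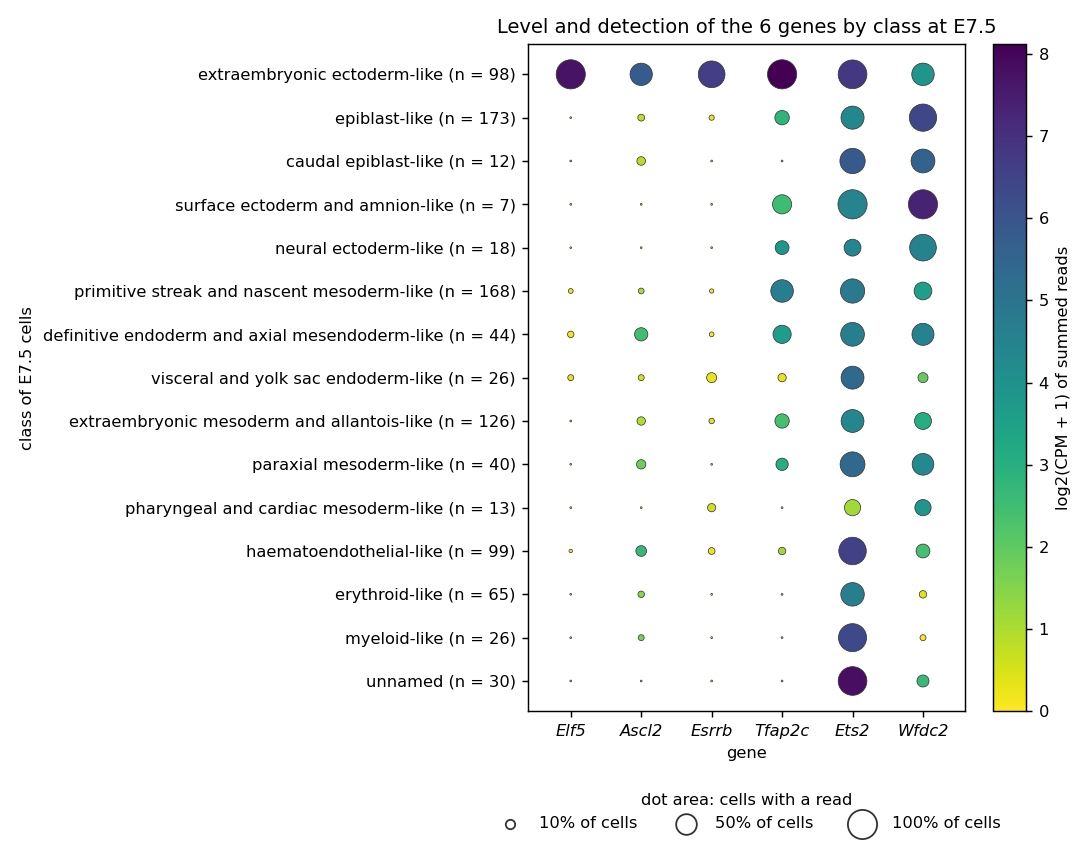
Level of the 6 genes (columns) in the 15 classes of E7.5 cells (rows), with colour for log2(CPM + 1) of summed reads and dot area for the percent of cells with a read. The ExE-like row is dark for *Elf5*, *Esrrb*, *Tfap2c* and *Ascl2*, *Ets2* is darkest in the unnamed cells (227 CPM), and *Wfdc2* in the surface ectoderm and epiblast-like rows (161 and 82.6 CPM).

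The genes were then counted together in each cell. Of the 98 ExE-like cells, 22 had reads of all 6 genes, 53 of 5, 22 of 4 and 1 of 3, so 97 had at least 4 (99.0%, 94.4 to 99.97). Of the 847 other cells, 8 had at least 4 (0.945%, 0.409 to 1.85) and 0 had all 6, with a median of 1. Epiblast-like cells had at least 4 in 3 of 173 (1.73%) and surface ectoderm-like cells in 0 of 7. By plate the share was 54.9% on embryo 4 and 43.2% on embryo 5, against 7.23% on lane plate 6, 7.02% on lane plate 5 and 0 to 3.19% on the other 7. The other cells of embryos 4 and 5 had at least 4 in 1 of 92.

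**Figure D3:**
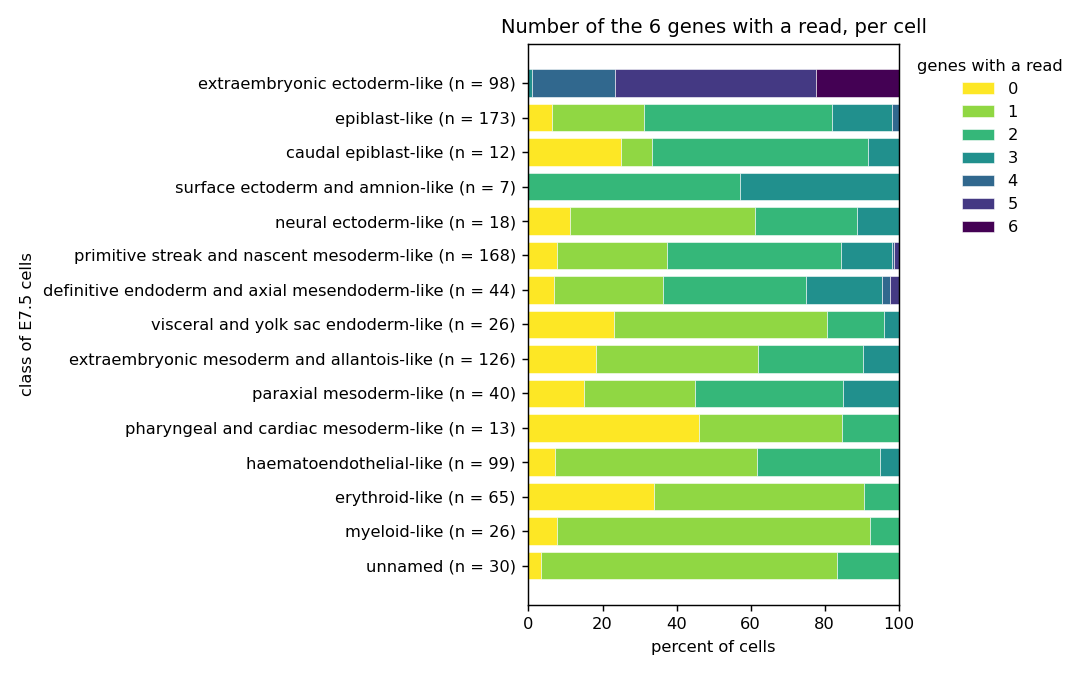
Percent of cells (horizontal axis) with reads of 0 to 6 of the genes (colours), for each class of E7.5 cells (rows). All but 1 of the 98 ExE-like cells have 4 or more, and most cells of other classes have 0 to 2.

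Since *Elf5* and *Tfap2c* were in every ExE-like cell, each pair with them was as frequent as the rarer partner. *Ascl2* and *Esrrb* differed. Both were read in 42 of 98 cells, *Esrrb* alone in 40, *Ascl2* alone in 15 and neither in 1. The share with both was 42.9%, and the product of the single shares 48.7%. In the 847 other cells *Elf5* was seen with *Esrrb* in 1 cell and with *Ascl2* in 2.

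Reads of the 6 genes in wells that held other cells were compared between plates with and without ExE-like cells. On embryos 4 and 5 the 92 other cells had *Elf5* at 0.114 CPM (0.0419 to 0.249), from 6 reads in 3 cells. All 186 cells of embryos 1 and 2 had 0.131 CPM (0.0814 to 0.201), and the intervals overlapped. These values are 0.0547% and 0.0629% of the ExE-like level. On lane plates 4 to 6, 0 reads were found in 212 other cells, and 0 in all cells of lane plates 1 to 3. The Poisson intervals of these zeros end at 0.0300 CPM and 0.0107 CPM, below the intervals of embryos 4 and 5 and of embryos 1 and 2.

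For *Esrrb* the other cells of embryos 4 and 5 were at 0.362 CPM (0.218 to 0.565) and embryos 1 and 2 at 0.138 CPM (0.0863 to 0.208). Of the 19 reads on embryos 4 and 5, 15 lay in 2 of 14 epiblast-like cells, 11 of them in 1 cell, which put that class at 2.08 CPM against 0.0691 CPM in 69 cells of embryos 1 and 2. *Tfap2c* was at 9.35 CPM (8.54 to 10.2) in the other cells of embryos 4 and 5 and 10.2 CPM (9.68 to 10.7) on embryos 1 and 2. *Ascl2* was at 2.51 CPM (2.102 to 2.98) and 1.69 CPM (1.49 to 1.904), *Ets2* at 40.6 and 24.8 CPM, and *Wfdc2* at 21.6 and 32.2 CPM. These pools differed in classes, with 12 visceral and yolk sac endoderm-like cells on each of embryos 4 and 5 and 0 on embryos 1 and 2. In primitive streak and nascent mesoderm-like cells *Tfap2c* was at 21.7 and 14.6 CPM, with embryo 4 at 8.91 CPM and embryo 5 at 34.2 CPM. In epiblast-like cells it was at 5.27 and 7.58 CPM. *Elf5* had 0 reads in the epiblast-like cells of both pairs, 14 on embryos 4 and 5 and 69 on embryos 1 and 2.

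Within the ExE-like class the genes varied unevenly. In embryo 4 the quartiles of *Elf5* were 154 and 314 CPM around a median of 201 CPM, those of *Tfap2c* 168 and 307 CPM around 236 CPM, and those of *Ets2* 65.97 and 143 CPM around 109 CPM. In embryo 5 the medians were 188, 194 and 97.6 CPM. *Esrrb* ran from 0 to 302 CPM in embryo 4 and from 0 to 424 CPM in embryo 5, with medians of 95.8 and 78.9 CPM. On the log2(CPM + 1) scale the SD over cells was 1.08 for *Elf5* and 0.94 for *Tfap2c* in embryo 4, against 2.65 for *Esrrb* and 3.001 for *Ascl2*, and the embryo 5 values were 1.61, 0.84, 2.53 and 2.92. Thus *Tfap2c* varied least and *Ascl2* most in each embryo.

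*Ascl2* and *Esrrb* varied in opposite directions. Across cells the Pearson correlation of log2(CPM + 1) was -0.70 in embryo 4 (n = 50 cells) and -0.49 in embryo 5 (n = 37 cells). Cells of an embryo share a plate, and these are descriptions with no test. In embryo 4 the median *Esrrb* level was 54.2 CPM in the cells with an *Ascl2* read and 128 CPM in those without, and the median *Ascl2* level was 249 CPM in the 8 cells without an *Esrrb* read and 3.13 CPM in the 42 with one. In embryo 5 *Esrrb* was at 40.8 CPM with and 96.2 CPM without an *Ascl2* read. Depth moved little with either gene. The correlation with log2 total reads was 0.21 and 0.06 for *Ascl2*, and -0.05 and -0.00022 for *Esrrb*.

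**Figure D4:**
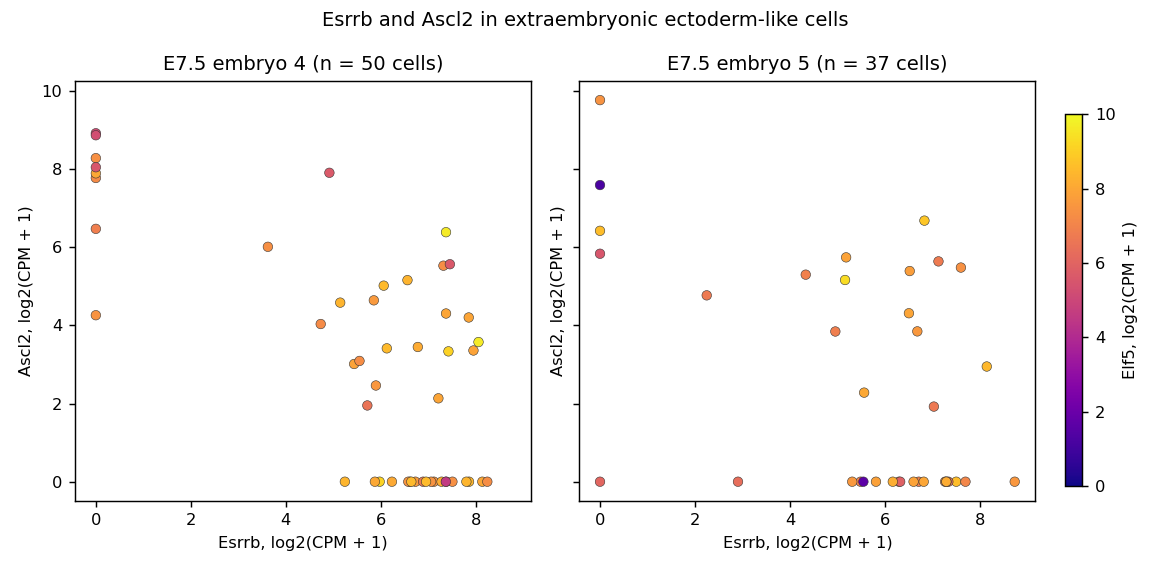
*Esrrb* (horizontal axis) against *Ascl2* (vertical axis), both as log2(CPM + 1), in ExE-like cells of embryo 4 (left, n = 50) and embryo 5 (right, n = 37), each point 1 cell coloured by *Elf5*. Cells with the highest *Ascl2* lie at low or no *Esrrb*, and the correlations are -0.70 and -0.49.

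*Elf5* sided with *Esrrb*, with correlations of 0.41 in embryo 4 and 0.37 in embryo 5, and *Tfap2c* sided with *Ascl2*, with 0.41 and 0.40. Between *Elf5* and *Tfap2c* the values were -0.47 and -0.21, between *Esrrb* and *Tfap2c* -0.57 and -0.27, and between *Esrrb* and *Ets2* 0.31 and 0.26. Of the 15 pairs, 14 had the same sign in both embryos, and *Tfap2c* with *Ets2* did not (-0.19 and 0.39).

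The 14 other trophoblast stem network genes were set against both. With *Esrrb*, 10 of 14 had a positive correlation in both embryos and 2 a negative one, with medians of 0.41 and 0.36. Of the 10437 other genes read in at least 10 ExE-like cells of each embryo, 31.8% were positive in both with *Esrrb* and 25.2% negative. With *Ascl2*, 3 were positive in both and 9 negative, with medians of -0.26 and -0.25, against 27.98% and 26.5% of the other genes. Examples named after their values were seen are *Eomes*, a T-box factor of the stem state, at 0.72 and 0.34 with *Esrrb* and -0.60 and -0.30 with *Ascl2*, and *Bmp4*, a signal from the ExE to the epiblast, at 0.67 and 0.78 with *Esrrb* and -0.44 in each embryo with *Ascl2*. *Phlda2*, an imprinted regulator of placental growth from the ectoplacental cone list, was the reverse, at -0.62 and -0.45 with *Esrrb* and 0.61 and 0.53 with *Ascl2*.

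The genes around the 6 were read from lists. All 14 network genes passed 10 CPM, 9 had both embryos 4 and 5 above all other plates and 0 below, with a median log2 ratio of 2.65, and 12 of 14 were at least 4-fold higher in ExE-like than in epiblast-like cells. The marker list that named the class shares 10 genes with this list, so its high level there is not independent. *Bmp8b*, a growth factor of the ExE, had the highest ratio, at 92.6 CPM on embryo 4, 58.8 CPM on embryo 5 and 0 to 16.5 CPM elsewhere (log2 ratio 4.96). *Bmp4* had the lowest, at 75.04 and 82.6 CPM against 18.9 to 133 CPM elsewhere (log2 ratio 0.29).

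Of the 11 ectoplacental cone and differentiated trophoblast genes, 5 passed 10 CPM and 1 had both embryos above. That was *Peg10*, a retrotransposon-derived imprinted gene that the placenta requires, at 895 CPM on embryo 4, 479 CPM on embryo 5 and 32.6 to 356 CPM elsewhere (log2 ratio 1.87). *Pcdh12*, an adhesion gene of endothelium and glycogen trophoblast cells, had the lowest ratio, -1.06, at 2.83 and 0.596 CPM against 0 to 37.4 CPM. *Tpbpb*, a marker of the ectoplacental cone, had 0 reads on every E7.5 plate. The list was split in the cells that carried *Elf5*. *Tpbpa*, a marker of the same tissue, and *Prl3d1*, a hormone gene of giant cells, had 0 reads in ExE-like cells, whereas *Peg10* was at 845 CPM, *Phlda2* at 598 CPM and *Hand1*, a factor of giant cells and mesoderm, at 75.3 CPM (all but *Peg10* named after their values were seen). In epiblast-like cells *Peg10* was at 2.55 CPM, *Phlda2* at 458 CPM and *Hand1* at 2.98 CPM.

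Among 9 relatives of the 6 genes, 3 passed 10 CPM and 1 had both embryos above. *Elf3*, an epithelial ETS factor close to *Elf5*, was at 57.1 CPM on embryo 4, 35.1 CPM on embryo 5 and 0 to 24.99 CPM elsewhere. *Ets1*, the relative of *Ets2* known from endothelium and lymphoid cells, had the lowest ratio (-1.86) and was at 0.616 CPM in ExE-like against 8.09 CPM in epiblast-like cells. *Tfap2b*, another AP-2 factor, had 0 reads on embryos 4 and 5.

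Of 6 pluripotency partners of *Esrrb*, 5 passed 10 CPM, and 3 had both embryos above, *Nr0b1* and, named after their values were seen, *Tfcp2l1* and *Zfp42*. *Nr0b1*, which encodes the nuclear receptor DAX1, had the highest ratio of the list (log2 ratio 5.01), at 88.96 CPM on embryo 4, 61.7 CPM on embryo 5 and 0 to 17.4 CPM elsewhere, and was at 154 CPM in ExE-like against 1.32 CPM in epiblast-like cells. *Nanog*, a core pluripotency factor, had the lowest (log2 ratio -0.20) and the opposite order of classes, at 0.531 CPM in ExE-like and 70.3 CPM in epiblast-like cells. Of 5 germ cell genes, which share *Tfap2c*, 1 passed 10 CPM and 0 had both embryos above. *Prdm1* had the highest ratio (log2 ratio 0.80) at 0.805 CPM in ExE-like cells, *Prdm14* the lowest (log2 ratio -0.87) with 1 read there, and *Dppa3* had 0 reads on embryos 4 and 5. Of the 5, 0 reached 10 CPM in ExE-like or in epiblast-like cells.

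**Figure D5:**
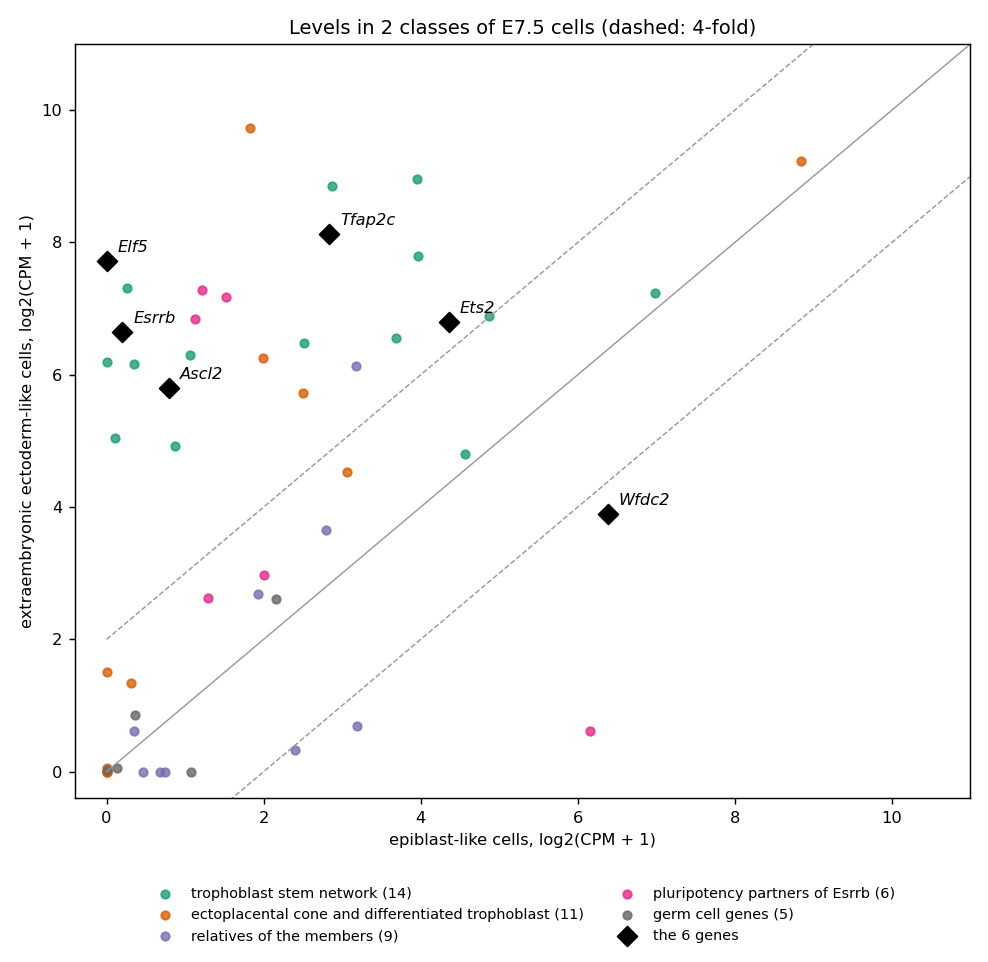
Levels in epiblast-like cells (horizontal axis) and ExE-like cells (vertical axis), both as log2(CPM + 1) of summed reads, for the 6 genes (black diamonds) and the 45 genes of 5 lists (coloured points), with lines of equal level (solid) and 4-fold difference (dashed). *Elf5*, *Esrrb*, *Ascl2*, *Tfap2c* and *Ets2* lie above the upper dashed line and *Wfdc2* below the lower one.

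Over 49 sums of reads, 1 for each class and plate with at least 5 cells, the 10 of 15081 genes whose pattern was most like that of *Elf5* were, in order, *Tex13b*, *Gm9*, *Vgll1*, *AU018091*, *Itga7*, *Gm32885*, *AA467197*, *Bmp8b*, *Fthl17a* and *Duox2*, with Pearson correlations of log2(CPM + 1) from 0.99 to 0.95. *Vgll1* encodes a cofactor of TEAD factors and *Itga7* an integrin subunit. The 4 ExE-like sums carry these values, and sums of a plate share libraries. The same measure was 0.97 for *Esrrb*, which would have stood among the 10. It was 0.77 for *Ascl2*, 0.66 for *Tfap2c*, 0.22 for *Ets2* and -0.02 for *Wfdc2*.

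At E8.5 there were 689 cells on 8 plates and 0 ExE-like cells. *Elf5* had 217 reads in 7 cells, 215 of them in 5 of 27 surface ectoderm-like cells of plate 7 (11.5 CPM, 10.04 to 13.2), with 97 in 1 cell. The 23 surface ectoderm-like cells of plate 8 had 0 reads. *Wfdc2* was highest in this class too, at 222 CPM over its 52 cells and in 50 of them. *Tfap2c* was at 48.5 CPM there, with 1299 of 1763 reads on plate 7 (69.6 CPM, against 21.1 CPM on plate 8) and 40.3% of the reads in 1 cell. Without plate 7 the class was at 26.2 CPM in 25 cells. Neural ectoderm-like cells were at 33.8 CPM over all plates, a value not recomputed without plate 7. By plate *Wfdc2* reached 128 CPM on plate 7 and 44.5 CPM on plate 8, against 0.374 to 12.5 CPM on the other 6 plates, and *Tfap2c* 23.6 and 13.7 CPM against 0 to 2.56 CPM.

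*Ets2* at E8.5 followed haematoendothelial-like cells, at 206 CPM and in 99.3% of 141 cells, and ranged from 20.7 CPM on plate 7 to 176 CPM on plate 6. *Esrrb* did not exceed 2.04 CPM on any plate and *Ascl2* 4.33 CPM. Plates of E8.5 carry no embryo names, and no test was made between stages.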

How the data were processed

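Single cells of E7.5 and E8.5 chimaeric embryos were profiled by RNA sequencing of 19 plates of 96 wells. The paper names Smart-seq2 for the RNA part of its scNMT-seq cells. It sequenced a further 1056 cells for RNA alone, and the E7.5 wells here also number 1056. The authors deposited 1 table of raw read counts per Ensembl gene and cell. HISAT2 2.1.0, featureCounts and GRCm38 are named in the submitters' processing notes, and the strand and multi-mapping settings are not given in the sources used here. Counts were summed and scaled to 1000000 reads (CPM). Cells had at least 100000 reads, at most 10% mitochondrial and at most 20% ribosomal reads, and total reads per E7.5 plate were 13423662 to 170844738. Plates were grouped from the sample titles.

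The 1730 cells of both stages with at least 4000 reads and the same limits on mitochondrial and ribosomal reads were clustered in scanpy 1.11.5 (Leiden resolution 1, 2000 variable genes, 30 principal components, 15 neighbours) without the 6 genes and the genes of methylation enzymes, which gave 27 clusters, and the cells among them with at least 100000 reads are described. A cluster took the name of a class when at least 3 of its markers were read in 25% of its cells and were 2-fold higher than in the rest, at least 2 were among its 50 leading genes, and its 10 leading genes held no more markers of another class. Differences in names from the study may come from this rebuilding. Only DAPI-negative singlets were sorted, per the methods, and no doublet caller was run. The members, lists, markers and comparisons were chosen with earlier results of these data known. Named list genes were those with the highest and lowest ratio in each list and those at 0, and others were named after their values were seen, as marked in the text, apart from withheld items, which are not reported here.

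Values were computed in Python 3.11.15 with scipy 1.17.1, and the scripts were tested on simulated data. No test was made between plates or classes. TMM factors (edgeR 4.0.16) and DESeq2 1.42.0 size factors served as alternative scalings, and other filters, pseudocounts, detection limits and clusterings were tried. Methylation and accessibility were not analysed here.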

Additional observations from a re-analysis of the deposited data

Results flagged for a closer look

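In 4 of 18 groups of plates examined (each gene over the 4 E7.5 embryo plates, the 6 lane plates and the 8 E8.5 plates), 1 plate stood far from the others. The rule was Dixon's ratio of gap to range, used as a flag and not as a test. Its nominal rate of 1 in 20 groups assumes alike, normally spread plates. These plates held different classes of cells, so that rate is no baseline for the 4. *Ets2* on lane plate 2 was at 164 CPM, with the nearest lane plate at 48.3 CPM. At E8.5, *Elf5* on plate 7 was at 3.65 CPM with the nearest plate at 0.0177 CPM, *Esrrb* on plate 4 at 2.04 CPM with the nearest at 0.408 CPM, and *Wfdc2* on plate 7 at 128 CPM with the nearest at 44.5 CPM. The classes of cells differed between these plates, and their part in the levels was not tested.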

How the results depend on the processing

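No paired analysis was possible because no result comes from a test and the numbers in the titles give only well and plate order. Of 313 alternative values, 132 of them with 1 plate left out, 45 moved by more than the spread between plates or the counting interval. Of the 45, 24 were shares of cells with a read. A change of direction was looked for only in the ratios of ExE-like to epiblast-like cells and the plate ratios of *Elf5*, *Ascl2*, *Esrrb* and *Tfap2c*. Among these 0 changed direction. With 5 CPM added in place of 1 the ratios of embryos 4 and 5 to the other plates were 4.39 for *Elf5*, 2.25 for *Ascl2* and 3.44 for *Esrrb* (log2), and with 0.1 CPM that of *Esrrb* was 6.79. With each plate left out in turn they ran from 5.70 to 6.57 for *Elf5*, 2.81 to 3.55 for *Ascl2*, 4.99 to 5.54 for *Esrrb*, 3.40 to 4.34 for *Tfap2c*, 0.58 to 1.14 for *Ets2* and -0.67 to -0.14 for *Wfdc2*. The ratios of ExE-like to epiblast-like cells then ran from 7.36 to 7.79 for *Elf5*, 4.73 to 5.18 for *Ascl2*, 6.34 to 6.50 for *Esrrb*, 4.76 to 5.50 for *Tfap2c*, 2.31 to 2.59 for *Ets2* and -2.70 to -2.11 for *Wfdc2*. A coarser clustering (resolution 0.5) put the *Tfap2c* value at 4.46, a smaller set of variable genes at 4.62 and a larger set (4000) at 3.89, where the ExE-like class held the same 98 cells and the epiblast-like class 152, 188 and 199 cells. With no filter, 5.48% of genes had both embryos above and 1.84% both below. Above and below were 8.55% and 5.74% with TMM factors, and 9.35% and 5.32% with DESeq2 size factors. With at least 3 genes required, 100% of ExE-like cells, 58.1% of cells of embryos 4 and 5 and 12.01% of cells of the other plates qualified, and with at least 5 genes 76.5% of ExE-like cells and 37.4% of cells of embryos 4 and 5. With 300000 reads per cell the ExE-like share with at least 4 was 100%. In the 37 other cells of embryos 4 and 5 without reads of 5 trophoblast markers, *Ascl2* was at 1.79, *Esrrb* at 0.633, *Ets2* at 53.6 and *Wfdc2* at 26.4 CPM. Of the 10 genes most like *Elf5*, 2 were shared under Spearman correlation and 6 with sums of at least 10 cells. The 7 surface ectoderm-like cells limit what can be said of that class, which held 25 cells at resolution 0.5, 4 with the smaller set of variable genes and 7 with the larger.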
